A study of Homo sapiens with 34 samples.

Results

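The genes described are the D-type cyclins CCND1, CCND2 and CCND3, their partner kinases CDK4 and CDK6, and the G1 inhibitors CDKN1A (p21), CDKN1B (p27), CDKN2A (p16 and p14ARF), CDKN2C (p18) and CDKN2D (p19). They were chosen by name, 10 of the 20255 genes in the expression table, and each matched 1 row. The comparison addresses which cyclin D gene was expressed in blood cells and which in the stroma of the same cultures. RNA sequencing covered 34 samples of H1, an established human embryonic stem cell line, taken before and during a blood differentiation without added haematopoietic cytokines. The samples comprised 1 untreated undifferentiated culture and 11 populations with 3 biological replicates each.

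The populations were day 0 embryoid bodies, unsorted cells at days 2 and 4, and cells sorted on later days by CD43, a sialoglycoprotein of the blood cell surface. In the authors' protocol BMP4 and hVEGF were given from day 0 to day 2, and hVEGF without BMP4 from then on. CD43+ and CD43- cells were separated at days 6, 9 and 12. The last sort, on day 16, used CD45 as well and gave CD43+/CD45+ cells and CD43-CD45- cells, here called the day 16 CD43+ and CD43- cells. In every comparison of day 16 with day 12, the day and the change of sort therefore cannot be told apart. All of them come from a single cell line. The values are GC-normalized tag counts that the authors rounded to whole numbers, and they have no unit of reads. Sorted by size, the values of 1 sample were identical to those of every other sample, so each value is close to a rank and the depth behind it is unknown. The error given is the spread between replicates.

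D-type cyclins are the sensors of growth signals in the cell cycle. They bind CDK4 or CDK6, and the complex phosphorylates the retinoblastoma protein, which releases E2F factors and lets the cell pass from G1 into S phase. The INK4 proteins (products of CDKN2A, CDKN2B, CDKN2C and CDKN2D) hold CDK4 and CDK6 away from the cyclin, whereas the CIP/KIP proteins (CDKN1A, CDKN1B and CDKN1C) act mainly on CDK2 complexes. Cyclin D3 is known for its part in the expansion and final divisions of erythroid and lymphoid precursors, and cyclin D1 for its wide expression in adherent cells such as fibroblasts.

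The sort was checked with SPN, the gene that encodes CD43. Its values ranged from 2338 to 9460 in the 12 CD43+ samples and from 18 to 328 in the 12 CD43- samples. Of 8 blood markers, 7 were higher in CD43+ cells on day 6 and 8 on each later day, and of 8 mesenchymal markers 6 were lower on day 6 and 8 on each later day. Endothelial markers were lower in CD43+ cells for 5, 6, 6 and 7 of 7 genes on days 6, 9, 12 and 16. The summed value of 8 myeloid markers in CD43+ cells was 806 to 1256 at day 6, 27139 to 35153 at day 9 and 267930 to 315055 at days 12 and 16. The sum of 7 erythroid markers in these cells was 105910 to 115031 at day 6 and 117036 to 198096 at day 9. It was 5302 to 13731 at day 12 and 4644 to 10191 at day 16. The highest value in every sample was 90700, which HBE1 had in each day 6 CD43+ sample and LYZ in each day 12 CD43+ sample. HBE1 thus made up most of the erythroid sum at day 6. Such sums have a ceiling, weigh the highest genes most and are not a measure of cell numbers. Sorted cells also held markers of the other side. The mesenchymal sum reached 59572 to 156024 in day 6 CD43+ cells. It was 4296 to 45546 in the later CD43+ samples and 182702 to 277552 in CD43- cells. On day 6, COL1A1 and COL1A2 did not differ across the sort, at -0.36 and 0.18 on the log2 scale (limma, adjusted p = 0.413 and 0.645). POSTN was lower in CD43+ cells, at a mean of 61 against 13783 in CD43- cells. The authors report that clusters of mesenchymal and endothelial genes were briefly higher in early blood cells. Carry-over of other cells and expression by blood cells were not tested as sources of the sum. In CD43- cells the myeloid sum was 82 to 137 at days 6 and 9, with ELANE at 0 on both days, and it was 206 to 10871 at day 12 and 7502 to 26950 at day 16.

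Sequences of CCND3, CDKN2C and CDKN2D are shown because these genes stood higher in CD43+ cells, CDKN2C only from day 9. They are parts of RefSeq promoter sequences of GRCh38.p14, 170 bases each, written 5′ to 3′ on the strand of the gene, and run from 250 to 81 bases before a start that RefSeq gives. RefSeq lists 3 such starts for CCND3, 3 for CDKN2C and 1 for CDKN2D, and the first whose stretch held no annotated exon was taken. They lie at chr6:41941889-41942058 (minus strand, CCND3), chr1:50960495-50960664 (plus strand, CDKN2C) and chr19:10569060-10569229 (minus strand, CDKN2D). The CCND3 stretch lies before an internal start, within the bounds of the gene in the annotation used, and the other stretches lie outside their genes. Capitals mark motif matches.
CCND3: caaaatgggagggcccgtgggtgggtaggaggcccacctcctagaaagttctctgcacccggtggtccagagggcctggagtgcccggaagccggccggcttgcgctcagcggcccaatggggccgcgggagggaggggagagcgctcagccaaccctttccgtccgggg
CDKN2C: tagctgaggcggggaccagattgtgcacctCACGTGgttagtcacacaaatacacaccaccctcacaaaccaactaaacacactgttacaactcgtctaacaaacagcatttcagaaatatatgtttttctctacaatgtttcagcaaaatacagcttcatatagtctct
CDKN2D: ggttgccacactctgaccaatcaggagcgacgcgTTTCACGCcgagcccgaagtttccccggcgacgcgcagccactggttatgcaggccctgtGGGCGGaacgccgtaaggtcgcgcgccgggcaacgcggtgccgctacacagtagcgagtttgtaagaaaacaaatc
A set of 8 motifs was searched on both strands. The CDKN2C stretch held 1 E-box (CACGTG, found in 3.53% of 35116 RefSeq stretches of the same length). The CDKN2D stretch held 1 E2F-type site (TTTNNCGC, 4.06%) and 1 GC box (GGGCGG, 29.5%), which did not overlap. No letters of the CRE core (TGACGT, 3.55%), AP-1 site (TGANTCA, 4.41%), GATA site (AGATAA, 6.72%), ETS core (GGAAGT, 11.5%) or STAT site (TTCNNNGAA, 4.8%) were found in the 3 stretches, and the CCND3 stretch held no match to any of the motifs. The GC content was 70.0% for CCND3, 40.6% for CDKN2C and 62.4% for CDKN2D.

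Across the sort, CCND3 was the D-type cyclin gene that stood higher in CD43+ cells on all 4 days, CCND1 stood lower on all 4 days, and CCND2 stood lower from day 9. Of the INK4 genes, CDKN2D was higher in CD43+ cells on all 4 days and CDKN2C from day 9. CDK4 changed sides between days 9 and 12. The members were tested with limma on log2(value + 1) over 19788 genes, and a gene differed when its Benjamini-Hochberg adjusted p was below 0.05. On day 6, 3 of the 10 members were higher and 1 was lower in CD43+ cells, where 28.9% of all genes tested were higher and 21.5% lower. On day 9, 5 were higher and 3 lower (38.5% and 27.2% of all genes). On day 12, 3 were higher and 4 lower (38.9% and 29.1%), and on day 16, 5 were higher and 5 lower (37.3% and 30.1%). With a fold change above 4 as well, the members called were 1, 4, 4 and 4, against 12.5%, 21.5%, 26.2% and 25.8% of all genes. Against shares as high as these, the number of members that differed says little about them. The median log2 fold change of the members was -0.22, 0.56, -0.10 and 0.33 on the 4 days, beside 0.14, 0.24, 0.22 and 0.14 for all genes.

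**Figure D1:**
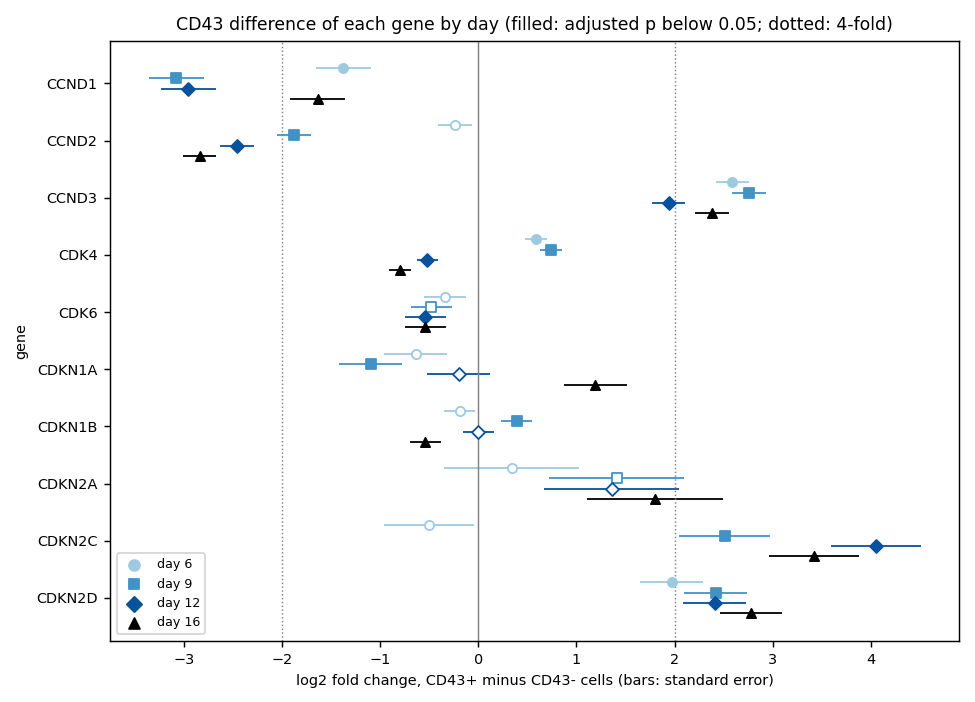
Log2 fold change between CD43+ and CD43- cells (x axis, positive values are higher in CD43+ cells) for each of the 10 genes (y axis) on days 6, 9, 12 and 16; points are limma estimates, bars their standard errors, filled points have an adjusted p below 0.05 and dotted lines mark a 4-fold change. CCND3 and CDKN2D lie to the right on every day and CCND1 to the left, while CDK4 lies at 0.59 and 0.74 on days 6 and 9 and at -0.52 and -0.80 on days 12 and 16.

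CCND1 (ENSG00000110092, GRCh38 chr11:69641087-69654474, plus strand) encodes cyclin D1. Its end overlaps LTO1 on the other strand, and as the use of strand in the counting is not stated, reads of the pair cannot be told apart. The undifferentiated sample had a value of 2448 and the day 0 embryoid bodies had 1087, 1934 and 2474. At day 2 the values were 6690, 6357 and 7902, the highest mean of any population, and at day 4 they were 5188, 6460 and 4504, which overlapped with day 2. The rise from day 0 to day 2 was 2.0 on the log2 scale (SE 0.28, adjusted p = 2.5e-06), with no overlap between the samples. In CD43- cells the values were 3080, 3716 and 3241 at day 6, 3059, 2460 and 3396 at day 9, 3371, 1991 and 2612 at day 12, and 814, 935 and 1057 at day 16. In CD43+ cells they were 1236, 1011 and 1674 at day 6, 352, 316 and 374 at day 9, 626, 248 and 236 at day 12, and 269, 281 and 346 at day 16. Each CD43+ sample lay below all 3 CD43- samples of its day, and day 12 replicate 1 was the highest of the later CD43+ samples.

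The log2 fold change of CCND1 between CD43+ and CD43- cells was -1.38 at day 6 (SE 0.28, adjusted p = 0.000195), -3.08 at day 9 (adjusted p = 3.55e-10), -2.96 at day 12 (adjusted p = 5.05e-10) and -1.64 at day 16 (adjusted p = 1.08e-05). In CD43+ cells CCND1 fell by 2.06 from day 4 to day 6 (adjusted p = 9.47e-07) and by 1.88 from day 6 to day 9 (adjusted p = 8.91e-06). In CD43- cells it fell by 1.48 from day 12 to day 16 (adjusted p = 0.000123). The CD43 difference itself widened by 1.70 from day 6 to day 9 (SE 0.40, adjusted p = 0.00329). The mesenchymal sum in day 6 CD43+ cells, at 59572, 74612 and 156024 in replicates 1 to 3, was highest in replicate 3, which also had the highest CCND1 value, and the part of such RNA in the day 6 value was not tested. In bulk samples such as these, fewer cells of a type and less RNA per cell cannot be told apart.

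CCND2 (ENSG00000118971, chr12:4273772-4305350, plus strand) encodes cyclin D2. It overlaps CCND2-AS1 on the other strand and AC008012.1 on its own strand, and neither has a row in the expression table. The undifferentiated sample had a value of 2578, the day 0 embryoid bodies 3262, 2601 and 2177, day 2 cells 3688, 3988 and 5045, and day 4 cells 1505, 1444 and 1443. CCND2 thus dropped at day 4, with a log2 fold change of -1.52 against day 2 (SE 0.17, adjusted p = 9e-08), at the step where CCND1 did not pass the test. In CD43- cells the values were 2380, 2453 and 3326 at day 6, 4511, 5914 and 4041 at day 9, 7637, 11204 and 8281 at day 12, and 9248, 7780 and 8512 at day 16. In CD43+ cells they were 2522, 1826 and 2535 at day 6, 1338, 1320 and 1232 at day 9, 1374, 1932 and 1584 at day 12, and 1284, 1241 and 1037 at day 16. The samples of the sorted populations overlapped at day 6 and were apart on each later day, with the day 12 and day 16 CD43- cells the highest populations of the series.

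At day 6 the CCND2 difference was -0.24 (SE 0.17, adjusted p = 0.254), and it passed the test only after median-of-ratios scaling, at -0.41 (adjusted p = 0.0494). It was -1.88 at day 9 (adjusted p = 4.99e-10), -2.46 at day 12 (adjusted p = 1.57e-12) and -2.84 at day 16 (adjusted p = 9.12e-14). The change from day 6 to day 9 was -1.63 (SE 0.25, adjusted p = 3.2e-05). Both sides took part in it: CCND2 rose by 0.82 in CD43- cells (adjusted p = 0.00373, and 0.136 in a fit of these populations alone) and fell by 0.81 in CD43+ cells (adjusted p = 0.000763). In CD43- cells it rose by a further 0.91 from day 9 to day 12 (adjusted p = 0.000229).

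CCND3 (ENSG00000112576, chr6:41934933-42050357, minus strand) encodes cyclin D3. Its lowest values were those of the day 0 embryoid bodies, 270, 262 and 362, below the 720 of the undifferentiated sample. It was 550, 482 and 427 at day 2 and 1122, 1116 and 1219 at day 4, a rise of 1.25 on the log2 scale between those days (SE 0.17, adjusted p = 9.73e-07). In CD43+ cells the values were 4478, 4478 and 4900 at day 6, 6008, 5704 and 6366 at day 9, 2576, 3859 and 3423 at day 12, and 7160, 8972 and 5641 at day 16. In CD43- cells they were 702, 810 and 784 at day 6, 758, 1034 and 896 at day 9, 728, 863 and 958 at day 12, and 1192, 1706 and 1251 at day 16. The lowest CD43+ sample, 2576 in day 12 replicate 1, lay above every CD43- and every unsorted sample.

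The log2 fold change of CCND3 was 2.59 at day 6 (SE 0.17, adjusted p = 1.57e-12), 2.76 at day 9 (adjusted p = 1.07e-13), 1.94 at day 12 (adjusted p = 6.54e-11) and 2.38 at day 16 (adjusted p = 1.15e-12). From day 4 to day 6 the gene rose by 2.0 in CD43+ cells (adjusted p = 2.09e-10) and fell by 0.59 in CD43- cells (adjusted p = 0.00497). The CD43 difference narrowed by 0.82 from day 9 to day 12 (SE 0.23, adjusted p = 0.00968), when CCND3 fell by 0.89 in CD43+ cells (adjusted p = 5.25e-05). The erythroid sum in CD43+ cells also fell between these days, and its part in the CCND3 values was not tested. From day 12 to day 16, between which the sort changed as well, CCND3 rose again by 1.14 in CD43+ cells (adjusted p = 4.99e-06). In CD43- cells it rose by 0.69 at that last step (adjusted p = 0.00133). The highest CD43- value, 1706, was in day 16 replicate 2, the CD43- sample with the highest myeloid sum (26950, against 7502 and 15517 in replicates 1 and 3) and the highest blood marker sum (5415, against 1774 and 2646), and the part of blood cell RNA in this value was not tested.

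**Figure D2:**
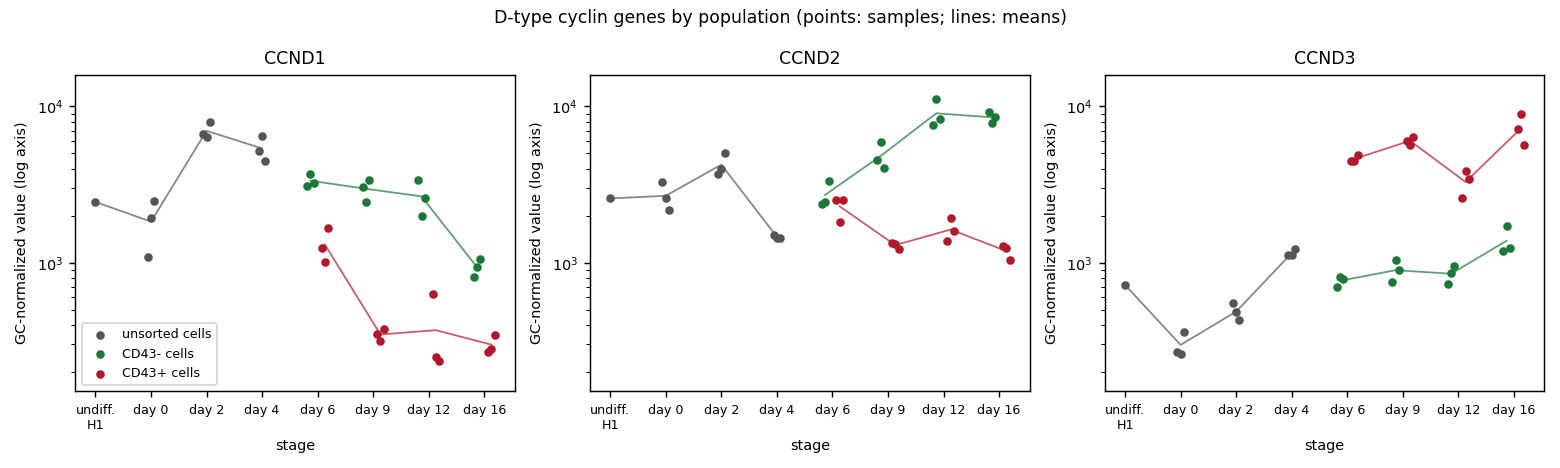
GC-normalized values (y axis, log scale) of CCND1, CCND2 and CCND3 in all 34 samples by stage (x axis); grey points are unsorted cells, green CD43- cells and red CD43+ cells, and lines join the population means. The red and green points of CCND1 and CCND3 are apart on every day in opposite directions, and those of CCND2 part between day 6 and day 9.

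The ratio of 2 genes within a sample was compared between populations only, since without gene lengths its sign carries no information. The log2 ratio of CCND3 to CCND1 was lowest at day 2, at -3.84 ± 0.32 (SD, n = 3), and highest in day 16 CD43+ cells, at 4.58 ± 0.50. On days 6, 9 and 12 it was -2.12 ± 0.08, -1.73 ± 0.42 and -1.62 ± 0.52 in CD43- cells and 1.85 ± 0.30, 4.11 ± 0.05 and 3.28 ± 1.08 in CD43+ cells. In day 16 CD43- cells the ratio was 0.55 ± 0.31, above every earlier CD43- sample and below every CD43+ sample. The log2 ratio of CCND2 to CCND1 in CD43- cells had a higher mean on each later day, at -0.31 ± 0.32 on day 6 and 0.69 ± 0.52, 1.78 ± 0.66 and 3.19 ± 0.27 at days 9, 12 and 16. In CD43+ cells it was 0.83 ± 0.22, 1.90 ± 0.17, 2.28 ± 1.0 and 1.99 ± 0.36, so that at day 16 the ratio was higher in each CD43- sample than in each CD43+ sample, the reverse of days 6 and 9. The ratios are descriptions and were not tested.

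**Figure D3:**
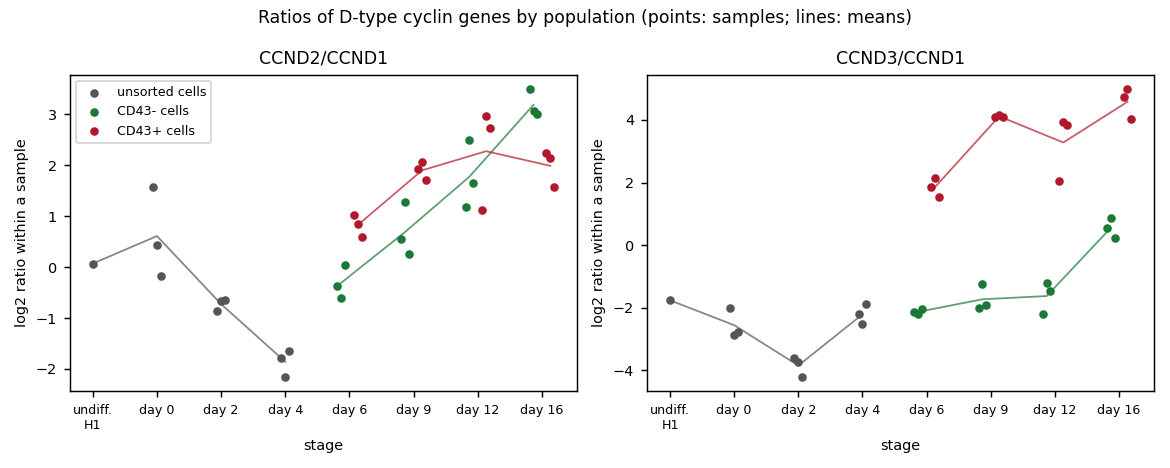
Log2 ratio within each sample (y axis) of CCND2 to CCND1 (left) and of CCND3 to CCND1 (right) by stage (x axis); points are samples, colours as unsorted (grey), CD43- (green) and CD43+ (red) cells, and lines join population means. The CCND3 ratio is higher in the red than in the green points on every day, and the CCND2 ratio in green points climbs from -0.31 to 3.19.

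Over the means of the 11 replicated populations, the genes most like CCND1 by Pearson's r were FSCN1 (0.965), which encodes the actin bundler fascin, RASL12 (0.959) and CDH2 (0.956), which encodes N-cadherin. Those most like CCND2 were VGLL3 (0.956), GUCY1A2 (0.947), a subunit of the nitric oxide receptor, and CDH7 (0.932). Over the 33 single samples these genes ranked only 28, 194 and 32 in their likeness to CCND2, whereas the leading genes of the other cyclins ranked 1, 2 and 3 in both. Those most like CCND3 were FERMT3 (0.982), which encodes the kindlin of blood cells, SULT1A1 (0.978) and MPP1 (0.972), which encodes a protein of the red cell membrane. CDKN2D followed CCND3 with r = 0.970, and CDKN2C with r = 0.835. By Spearman's rho CDKN2D ranked 8 among 19788 genes, and FERMT3, SULT1A1 and MPP1 ranked 30, 31 and 36. CCND1 and CCND3 had r = -0.784. These correlations are descriptions over points that share a cell line and a common normalization.

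CDK4 (ENSG00000135446, chr12:57747727-57756013, minus strand) encodes a catalytic partner of the D-type cyclins and overlaps TSPAN31 and MARCH9 on the other strand. The value was 2372 in the undifferentiated sample, and across the 9 unsorted samples of days 0 to 4 it lay between 2566 and 4136. In CD43+ cells the values were 4012, 4312 and 3701 at day 6, 4220, 4406 and 4312 at day 9, 1234, 1685 and 1452 at day 12, and 1090, 1012 and 1128 at day 16. In CD43- cells they were 2228, 2870 and 2922 at day 6, 2542, 2379 and 2870 at day 9, 2176, 2076 and 1964 at day 12, and 1992, 1710 and 1942 at day 16. CD43+ samples were thus above the CD43- samples on days 6 and 9 and below them on days 12 and 16, without overlap on any day. The log2 fold change was 0.59 (SE 0.11, adjusted p = 5.97e-05), 0.74 (adjusted p = 1.5e-06), -0.52 (adjusted p = 0.00015) and -0.80 (adjusted p = 3.17e-07) on the 4 days. The change from day 9 to day 12 was -1.25 (SE 0.15, adjusted p = 8.42e-07), and in CD43+ cells alone CDK4 fell by 1.58 (adjusted p = 5.57e-12). The erythroid sum in CD43+ cells was 117036 to 198096 at day 9 and 5302 to 13731 at day 12, and its part in the CDK4 values was not tested.

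CDK6 (ENSG00000105810, chr7:92604921-92836594, minus strand) encodes the other catalytic partner and overlaps AC002454.1 on the other strand. Its value was 440 in the undifferentiated sample, 406, 402 and 359 at day 0, 836, 982 and 906 at day 2, and 4511, 5254 and 4118 at day 4. The rise from day 2 to day 4 was 2.34 on the log2 scale (SE 0.21, adjusted p = 1.6e-09), after one of 1.22 from day 0 to day 2 (adjusted p = 5.68e-05). The sorted samples ranged from 1591 to 4380 in CD43+ cells and from 2042 to 6372 in CD43- cells. The CD43 differences were small, at -0.34, -0.48, -0.54 and -0.54 on days 6, 9, 12 and 16 (SE 0.21, adjusted p = 0.194, 0.0539, 0.0277 and 0.0291). The day 12 call was lost without CD43- replicate 1 (adjusted p = 0.292), CD43- replicate 3 (0.0598) or CD43+ replicate 1 (0.181), and the day 16 call without CD43- replicate 2 (0.0696) or 3 (0.0591) or CD43+ replicate 2 (0.0806) or 3 (0.0832). A fit of only the populations compared gave adjusted p-values of 0.0135 at day 9 and 0.165 at day 12, and a call was gained without CD43- replicate 1 at day 6 (0.029) and without CD43- replicate 2 at day 9 (0.0363). At day 9 the difference also passed the test after median-of-ratios scaling (-0.69, adjusted p = 0.00655) and with a stricter filter on low values (-0.48, adjusted p = 0.0499). In CD43+ cells CDK6 fell by 0.89 from day 9 to day 12 (adjusted p = 0.000986), the step at which CDK4 fell.

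CDKN1A (ENSG00000124762, chr6:36676460-36687339, plus strand) encodes p21, the inhibitor induced by p53. Its values lay between 134 and 598 in the 10 unsorted samples. In CD43- cells they were 1314, 1187 and 781 at day 6, 2865, 2040 and 2018 at day 9, 2616, 3062 and 4476 at day 12, and 2228, 2758 and 2228 at day 16. In CD43+ cells they were 649, 643 and 772 at day 6, 862, 1366 and 1020 at day 9, 3516, 2755 and 2440 at day 12, and 5312, 5703 and 5406 at day 16. The order of the sorted populations turned over time: CD43+ samples lay below the CD43- samples at days 6 and 9, overlapped with them at day 12 and lay above them at day 16. The log2 fold change was -0.64 at day 6 (SE 0.32, adjusted p = 0.0955), -1.10 at day 9 (adjusted p = 0.0035), -0.20 at day 12 (adjusted p = 0.588) and 1.19 at day 16 (adjusted p = 0.00166). The day 6 difference passed the test in separate alternatives: without CD43- replicate 3 (adjusted p = 0.042), after median-of-ratios scaling (-0.81, adjusted p = 0.0417), and in a fit of the day 6 populations alone (0.0323). In CD43+ cells CDKN1A rose by 1.43 from day 9 to day 12 (adjusted p = 0.000392).

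CDKN1B (ENSG00000111276, chr12:12715058-12722371, plus strand) encodes p27, an inhibitor that holds cells in G1 and is controlled to a large part through its protein stability. Its values fell to 434, 523 and 452 in CD43+ cells and to 588, 416 and 423 in CD43- cells at day 12, the lowest of all populations. At day 9 they were 928, 1122 and 1150 in CD43+ and 788, 900 and 744 in CD43- cells, and at day 16 they were 1116, 1346 and 795 in CD43+ and 1807, 1428 and 1420 in CD43- cells. The dip at day 12 was shared by the sorted populations. From day 9 to day 12 the gene fell by 1.18 in CD43+ cells (SE 0.16, adjusted p = 4.67e-07) and by 0.78 in CD43- cells (adjusted p = 0.000345), and from day 12 to day 16 it rose by 1.18 (adjusted p = 1.3e-06) and 1.71 (adjusted p = 2.83e-09). The CD43 difference was -0.19 at day 6 (adjusted p = 0.334), 0.39 at day 9 (adjusted p = 0.0296), 0.00 at day 12 (adjusted p = 0.99) and -0.54 at day 16 (adjusted p = 0.00366). The day 9 call was lost after median-of-ratios scaling (0.18, adjusted p = 0.325) and without CD43- replicate 1 (0.0707) or 3 (0.102) or CD43+ replicate 2 (0.0874) or 3 (0.102), and the day 16 call without CD43+ replicate 3 (-0.33, adjusted p = 0.0616).

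CDKN2D (ENSG00000129355, chr19:10566462-10569059, minus strand) encodes the INK4 protein p19. The 10 unsorted samples had values between 42 and 181 and the 12 CD43- samples between 96 and 232. In CD43+ cells the values were 524, 538 and 537 at day 6, 840, 840 and 778 at day 9, 640, 960 and 848 at day 12, and 1206, 1560 and 950 at day 16. Every CD43+ sample lay above every other sample of the series. The log2 fold change was 1.97 at day 6 (SE 0.32, adjusted p = 9.58e-06), 2.42 at day 9 (adjusted p = 2.04e-07), 2.41 at day 12 (adjusted p = 1.62e-07) and 2.78 at day 16 (adjusted p = 1.51e-08). The highest CD43- value, 232, was again in day 16 replicate 2. Like CCND3, CDKN2D was therefore high from the first sorted blood cells onwards.

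CDKN2C (ENSG00000123080, chr1:50960745-50974633, plus strand) encodes the INK4 protein p18. It was at 0 in 5 samples and between 1 and 10 in the other unsorted samples, and in CD43- cells it ranged from 3 to 15. In CD43+ cells the values were 6, 4 and 2 at day 6, 64, 70 and 60 at day 9, 138, 48 and 52 at day 12, and 184, 164 and 124 at day 16. The day 6 CD43+ cells overlapped with the CD43- cells, and all 9 later CD43+ samples were above every other sample. The CD43 difference was -0.50 at day 6 (SE 0.46, adjusted p = 0.383), 2.51 at day 9 (adjusted p = 3.21e-05), 4.05 at day 12 (adjusted p = 1.54e-08) and 3.42 at day 16 (adjusted p = 2.95e-07). From day 6 to day 9 it rose by 3.80 in CD43+ cells (adjusted p = 4.03e-07), and the CD43 difference grew by 3.02 (SE 0.65, adjusted p = 0.00169). With a pseudocount of 0.1 in place of 1, that growth was 3.22 and missed the threshold (adjusted p = 0.0527). On this scale a fold change of such low values depends on the pseudocount. The myeloid sum in CD43+ cells was also higher at day 9, at 27139 to 35153, than at day 6, at 806 to 1256, and its part in the CDKN2C value was not tested.

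CDKN2A (ENSG00000147889, chr9:21967753-21995301, minus strand) encodes p16 and, from another reading frame, p14ARF, which a value per gene does not separate. It also overlaps the antisense gene CDKN2B-AS1. All values were low: 0 to 2 in the 10 unsorted samples, 0 to 20 in CD43- cells and 4 to 48 in CD43+ cells, with the highest in day 9 CD43+ replicate 1. The CD43 difference was 0.34 at day 6 (SE 0.69, adjusted p = 0.715), 1.41 at day 9 (adjusted p = 0.0748), 1.36 at day 12 (adjusted p = 0.0825) and 1.80 at day 16 (adjusted p = 0.023). With the day 6 replicates paired, the day 9 and day 12 differences passed the test (adjusted p = 0.026 and 0.0301), as they did with a pseudocount of 10 (0.00298 and 0.0102) and in fits of only the populations compared (0.0325 and 0.0439). The day 9 difference also passed without CD43- replicate 3 (adjusted p = 0.0453). The day 16 call was lost without CD43- replicate 1 (adjusted p = 0.0732) or 3 (0.0546), without CD43+ replicate 1 (0.0641) or 2 (0.0566), and with a pseudocount of 0.1 (0.183).

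**Figure D4:**
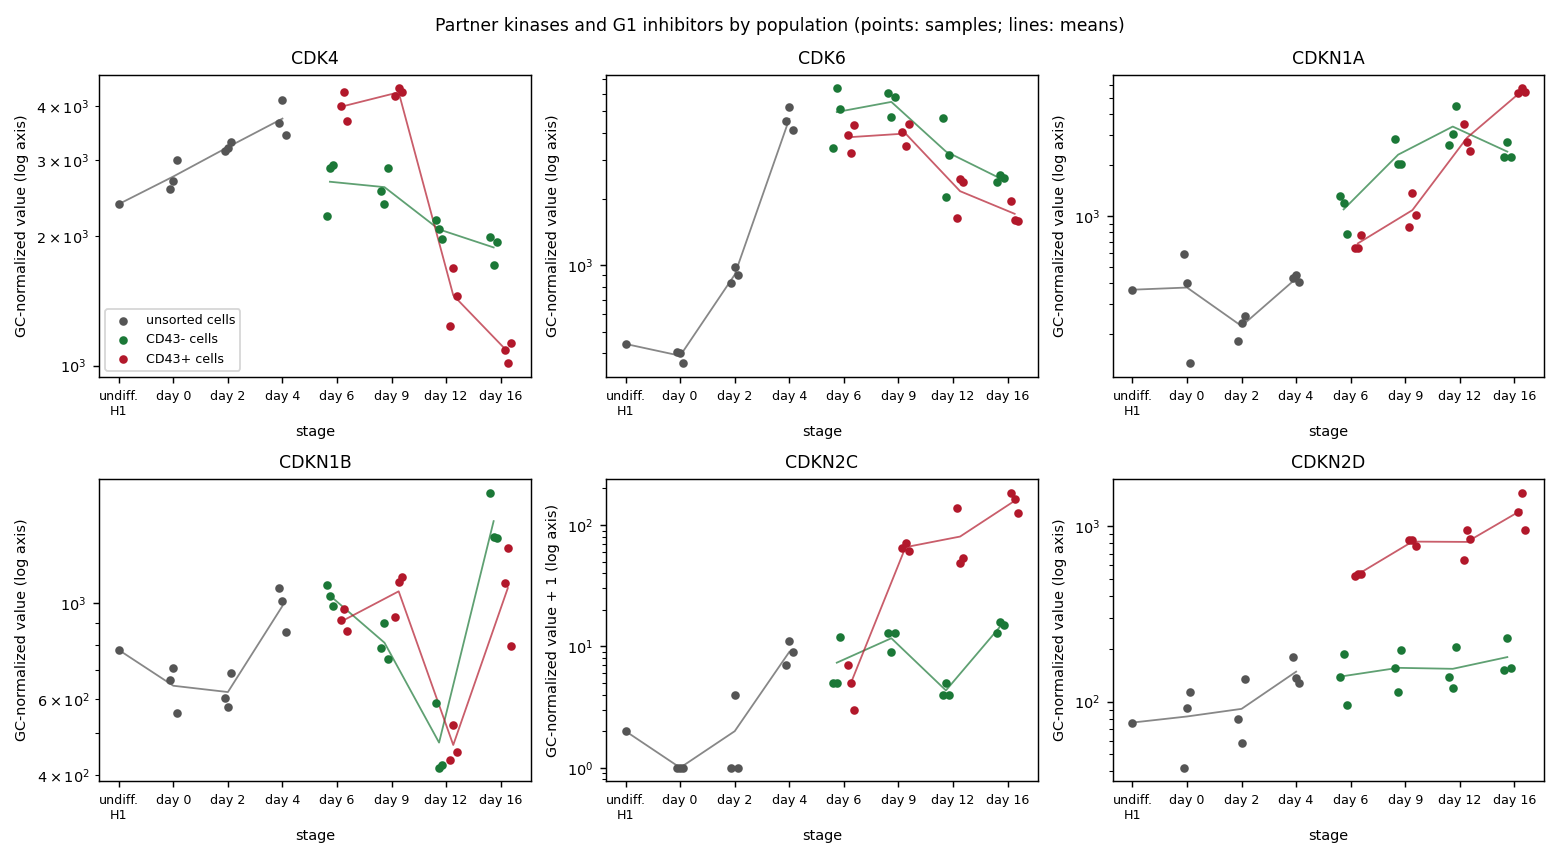
GC-normalized values (y axes, log scale, with 1 added for CDKN2C) of CDK4, CDK6, CDKN1A, CDKN1B, CDKN2C and CDKN2D in all 34 samples by stage (x axis); points are samples, colours as unsorted (grey), CD43- (green) and CD43+ (red) cells, and lines join population means. The red and green lines of CDK4 cross between days 9 and 12, those of CDKN1A between days 12 and 16, and CDKN1B is lowest at day 12 in both. The red points lie above all others for CDKN2D on every day and for CDKN2C from day 9, where CDKN2C stays low, at 184 or less.

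Between successive stages, 4 members differed from day 0 to day 2, where 36.4% of all genes did, and 6 from day 2 to day 4 (36.1%). From day 4 to day 6, 5 differed in CD43+ cells (51.9%) and 4 in CD43- cells (8897 of the 19788 genes tested). In CD43+ cells 4, 5 and 6 members differed at the steps to days 9, 12 and 16 (29.8%, 56.3% and 42.4%). In CD43- cells 2, 5 and 4 did (6.65%, 36.7% and 45.6%). The CD43 difference changed between neighbouring days for 3 members from day 6 to day 9 (CCND1, CCND2 and CDKN2C, 18.2% of all genes), for 2 from day 9 to day 12 (CCND3 and CDK4, 27.4%) and for 2 from day 12 to day 16 (CCND1 and CDKN1A, 17.0%). The calls of this last pair were lost when single libraries were left out.

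Genes of the later cell cycle were higher in CD43+ cells. Of 17 genes of S and M phase, 9 were higher at day 6 and 17 on each later day, with median log2 fold changes of 0.59, 1.63, 1.98 and 2.18. Of all genes tested, 28.9%, 38.5%, 38.9% and 37.3% were higher on days 6, 9, 12 and 16. The median log2 fold change of all genes was 0.14, 0.24, 0.22 and 0.14. BUB1, a checkpoint kinase of mitosis, had the largest rise among the genes called at days 9, 12 and 16, and was higher by 2.48 at day 9 (2519 ± 148 against 473 ± 182, SD, n = 3, adjusted p = 1.13e-05). The summed value of the 17 genes was 75316 to 78276 in day 9 CD43+ cells and 27217 to 32629 at day 16. In CD43- cells it went from 24310 to 36724 at day 6 to 6404 to 7428 at day 16, with replicate 1 of day 12 at 20247 against 7854 and 10749 in replicates 2 and 3. In CD43+ cells the sum was thus highest at day 9 and lower at days 12 and 16.

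Of 13 genes of the RB and E2F group, 7, 10, 10 and 10 were higher in CD43+ cells on the 4 days and 0, 0, 2 and 1 were lower, with median log2 fold changes of 0.37, 0.84, 0.86 and 1.26. TFDP2, a dimer partner of E2F proteins, had the largest rise at day 6, of 2.16 (3914 ± 147 against 883 ± 154, adjusted p = 2.57e-11), and E2F2, an activating E2F, on the later days, of 2.48, 4.58 and 4.34 (adjusted p = 3.64e-06, 6.23e-11 and 1.92e-10). E2F5, a repressive E2F, was higher at day 6 by 1.14 (adjusted p = 0.000321) and did not differ at day 9 (0.27, adjusted p = 0.325). It was lower at day 12 by -1.95 (adjusted p = 6.45e-08) and at day 16 by -2.11 (adjusted p = 1.73e-08). Of 11 genes of cyclins E and A with CDK2, 6, 7, 6 and 6 were higher and 1, 2, 4 and 2 lower, with medians of 0.55, 0.79, 1.16 and 1.25. On the same days 28.9%, 38.5%, 38.9% and 37.3% of all genes were higher and 21.5%, 27.2%, 29.1% and 30.1% lower. The medians of all genes were 0.14, 0.24, 0.22 and 0.14. CCNE2, a cyclin E gene, was higher at day 9 by 2.58 (adjusted p = 9.71e-08), and CCNA1, a cyclin A gene of low level, at days 12 and 16 by 3.55 and 4.02 (adjusted p = 9.57e-06 and 1.56e-06).

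The other G1 inhibitors did not move as one. CDKN2B, which encodes the INK4 protein p15, was lower in CD43+ cells at days 6, 9 and 12, by -3.22, -3.86 and -2.13 (adjusted p = 3.07e-05, 1.15e-06 and 0.00155), and not at day 16 (0.65, adjusted p = 0.312). The direction was thus opposite to that of CDKN2C at days 9 and 12 and of CDKN2D at days 6, 9 and 12. CDKN1C, which encodes p57, was higher at day 6 by 1.34 (adjusted p = 5.55e-05) and lower afterwards, by -1.26, -2.53 and -2.99 (adjusted p = 6.31e-05, 7.57e-10 and 3.19e-11), and reached 13607 ± 677 in day 16 CD43- cells against 1728 ± 254 in CD43+ cells. CDKN3, a phosphatase of cyclin-dependent kinases that is itself expressed with the cell cycle, was higher on all 4 days, by 0.73, 2.30, 3.13 and 3.26 (adjusted p = 0.023, 2.49e-08, 5.71e-11 and 2.67e-11).

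Of 12 p53 targets, 3, 5, 4 and 6 were higher in CD43+ cells and 2, 3, 3 and 4 were lower on the 4 days, beside 28.9%, 38.5%, 38.9% and 37.3% of all genes higher and 21.5%, 27.2%, 29.1% and 30.1% lower. The median log2 fold change of this list was 0.29, 0.17, -0.01 and 0.03, beside 0.14, 0.24, 0.22 and 0.14 for all genes, so that the counts lay near those of all genes. BTG2, an antiproliferative gene, was higher at day 16 by 2.33 (8800 ± 782 against 1742 ± 55, adjusted p = 5.14e-07), whereas PHLDA3, an inhibitor of AKT, was lower by -3.30 (44 ± 13 against 432 ± 29, adjusted p = 9.9e-14). FAS, a death receptor, was higher at day 12 by 2.35 (adjusted p = 5.1e-06). Of 10 upstream regulators of the D-type cyclins, 4, 3, 2 and 4 were higher and 3, 5, 6 and 3 lower, with median log2 fold changes of -0.11, -0.37, -0.83 and 0.71, against the same shares of all genes. STAT5A, a mediator of cytokine signals, was higher on all 4 days, by 2.36, 3.38, 2.77 and 2.16 (adjusted p = 1.61e-10, 4.34e-14, 1.2e-12 and 1.79e-10). MYC was higher at day 6 by 2.42 (adjusted p = 9.23e-09) and lower at day 12 by -2.15 (adjusted p = 2.03e-08), at day 9 the difference was 0.54 (adjusted p = 0.0615), and at day 16 it was higher again by 1.18 (adjusted p = 0.000156). JUN, an AP-1 factor, did not differ at day 6 (-0.50, adjusted p = 0.17). It was lower at day 9 by -2.35 (adjusted p = 1.17e-07) and at day 12 by -2.14 (adjusted p = 4.14e-07). At day 16 no gene of this list was called lower.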

How the data were processed

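RNA of 34 samples was sequenced by 2 providers, and which sample went to which is not given in the sources used here. Reads were mapped and quantified by the authors (bowtie2, RSEM, Ensembl gene models) and turned into GC-normalized tag counts with EDASeq. The deposited values, rounded to whole numbers for 20255 genes, are treated as a normalized score and not as counts, and the deposited GC percent of each gene was used only in checks. Every sample had the same sum (17856940), median (197) and number of genes at 0 (1292), so depth is unknown and no counting error was computed.

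For testing, 1 was added to each value and log2 taken. A single limma fit (version 3.58.1, R 4.3.3, moderated variances with a trend) covered the 33 replicated samples. Genes needed 3 or more samples at 10 or above, which left 19788, and p-values were adjusted over all of them by the Benjamini-Hochberg method. A gene differed at an adjusted p below 0.05 and was called at a fold change above 4 as well. All 10 genes passed the filter. Fold changes on this scale understate changes of low values. The procedure was tested on simulated data. Tables and figures were made with numpy 2.4.6, pandas 2.3.3 and scipy 1.17.1. Same-numbered CD43+ and CD43- samples were compared by the correlation of their deviations from the population means, which was 0.109 to 0.199 at day 6, and at most 0.108 and not above 0.1 in every pair on the other days. The main fit used population only and no pairs on any day. Numbers were taken as pairs at day 6 only in an alternative, a replicate block within the day 6 populations. The members and gene lists were chosen with earlier results of these data known. Named genes were the members, the 3 genes most like each cyclin, and the called gene with the largest rise or fall of each pathway list in a CD43 comparison. STAT5A at day 6, and the values of CDKN1C, CDKN2B, CDKN3, E2F5, JUN and MYC outside that rule, were added after their values were seen. So were COL1A1, COL1A2, POSTN, HBE1 and LYZ among the cell type markers. Alternatives were other pseudocounts (0.1 and 10), filters, scalings, a replicate block, robust variances, fits of only the populations compared, a 2-fold threshold and leaving out each library.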

Additional observations from a re-analysis of the deposited data

Results flagged for a closer look

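The CD43 difference of 6 genes changed between neighbouring days by limma's test of the change itself. Of all genes tested, 17.0% to 27.4% passed at each of these steps. From day 6 to day 9 it changed by -1.63 for CCND2 (SE 0.25, adjusted p = 3.2e-05), by -1.70 for CCND1 (SE 0.40, adjusted p = 0.00329) and by 3.02 for CDKN2C (SE 0.65, adjusted p = 0.00169). From day 9 to day 12 it changed by -0.82 for CCND3 (SE 0.23, adjusted p = 0.00968) and by -1.25 for CDK4 (SE 0.15, adjusted p = 8.42e-07). From day 12 to day 16 it changed by 1.39 for CDKN1A (SE 0.45, adjusted p = 0.0316) and by 1.32 for CCND1 (SE 0.40, adjusted p = 0.0226). The sort also changed between these days, when CD45 was added to CD43.

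The last pair of calls depended on single libraries. For CCND1 the call was lost without day 12 CD43- replicate 1 (adjusted p = 0.0569), day 12 CD43+ replicate 2 (0.0705) or 3 (0.0795), day 16 CD43- replicate 1 (0.0585) or day 16 CD43+ replicate 3 (0.0531). With all libraries kept, the CCND1 call was also lost in a limma fit of only the populations compared (1.32, adjusted p = 0.0979). For CDKN1A it was lost without day 12 CD43- replicate 3 (adjusted p = 0.089), day 12 CD43+ replicate 2 (0.0568) or 3 (0.0772), day 16 CD43- replicate 1 (0.0665) or 3 (0.0628), or day 16 CD43+ replicate 1 (0.0509) or 2 (0.0574).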

How the results depend on the processing

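Of the alternative values of the CD43 differences of the 3 cyclins, 191 kept their direction and their side of the threshold and 1 did not, CCND2 at day 6 after median-of-ratios scaling (-0.41, adjusted p = 0.0494). This scaling moved the median of all genes by -0.139 and -0.206 in the CD43 comparisons of days 6 and 9, and by 0.149 and 0.107 for CD43+ cells and for the CD43 difference from day 9 to day 12. Reversed values were all of differences that did not pass the test: CDKN2A at day 6 was -0.08 with a pseudocount of 10 and -0.96 to 0.99 with 1 library left out, CDKN1A at day 12 was -0.37 to 0.02, CDKN1B at day 12 was -0.09 to 0.16, and the change of the CCND1 difference from day 9 to day 12 was -0.34 to 0.37. The cause was not tested. The number of members called above 4-fold at day 6 was 1 to 2 with 1 library left out, 2 without CD43- replicate 2, and 3 above 2-fold, and at day 16 it was 7 above 2-fold. Other single values lost a call in 77 cases and gained one in 18, and 1318 kept theirs. With the replicate number as a block, 4, 8, 7 and 10 members differed on the 4 days, and with the block within day 6 only, 4, 9, 8 and 10, and the block changed no call of a CD43 difference other than those given for CDKN2A. The stricter filter on low values left CDKN2A untested. Depth is unknown.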
